A study of Tupaia belangeri chinensis with 12 samples.

Results

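Cadherins, protocadherins and their catenins were followed through the layers of the fetal tree shrew cortex. The genes were chosen by symbol: every name in the deposited tables that begins with CDH or CDHR and a number, PCDH, CELSR and a number, or CTNN followed by A, B or D was kept. Names ending in li and a number, which the tables give to further copies of a gene, were left out (9 names). The rule found 64 of 81414 gene IDs, of which 26566 carry a symbol. PCDHB14liN and PCDHB16liN end in a letter and stayed in.

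The tissue was fetal cortex of Tupaia belangeri chinensis, the Chinese tree shrew, a small mammal close to the primates. Layers were cut by laser from Nissl-stained sections, and their poly(A) RNA was sequenced. There were 4 layers with 3 libraries each, from the ventricle outwards the ventricular zone (VZ), the inner (ISVZ) and outer (OSVZ) parts of the subventricular zone, and the cortical plate (CP). All 12 libraries carry the age of embryonic day 37 in the labels, but day 35 is written in each table name, and the age is therefore uncertain. No genotype, treatment or strain differs between the layers. A captured layer is a mixture of cell types. The labels do not tie the numbers 1, 2 and 3 to different animals, and p-values therefore reflect only variation among these libraries, which could be technical.

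Classical cadherins are calcium-dependent adhesion proteins that bind like molecules on neighbouring cells. Their cytoplasmic tails hold beta-catenin and p120-catenin, and alpha-catenin links that complex to actin. In the developing cortex these complexes form the apical belt that joins radial glia at the ventricular surface. Protocadherins lack the catenin-binding tail. The clustered ones give single neurons different surface identities, and the delta protocadherins act in cell sorting and axon growth. CELSR proteins are the large cadherins of planar cell polarity.

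Levels are given as scaled FPKM, fragments normalised for transcript length and library size, which allows levels of different genes to be set side by side. Differences are log2 differences of scaled FPKM plus 1, with the standard error (SE), from limma with Benjamini-Hochberg adjustment over 14107 genes. A gene is called at an adjusted p under 0.05. The log2 scale with 1 added understates the change of genes at low levels. Of the 64 genes, 47 reached 1 scaled FPKM in at least 3 libraries and were tested. Another 13 never reached 1 in any library, and CDH3, CDH22, PCDHA7 and PCDHB9 reached it in 1 or 2 libraries. CDH16 was listed at 0 in all 12 libraries. These genes passed the filter through whichever layer holds them, so counts below are of the tested genes only. At 57 of the 64 genes another annotated entry overlaps, and reads could have been divided between them.

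Markers of radial glia, dividing cells and projection neurons followed the labels of the layers, while intermediate progenitor markers did not set ISVZ apart from VZ. Summed intermediate progenitor markers (5 tested) ranged from 330 to 404 in VZ and from 295 to 430 in ISVZ, with none called between these layers. They were lower in OSVZ, at 195 to 311, and in CP, at 53.7 to 64.4. Summed radial glia markers (8 of 8 tested) ranged from 750 to 881 in VZ, from 308 to 407 in ISVZ, from 210 to 222 in OSVZ and from 26.9 to 46.4 in CP. Summed markers of dividing cells (6 of 6 tested) reached 91.1 to 297 in the germinal layers, meaning VZ, ISVZ and OSVZ, and 1.93 to 4.53 in CP. Summed projection neuron markers (8 of 8 tested) ranged from 59.9 to 216 in VZ and from 1022 to 1144 in CP. Interneuron and microglia markers were also lower in CP, at 21.0 to 56.1 and 1.03 to 2.18, against 74.1 to 502 and 7.76 to 29.2 in the germinal layers. Choroid plexus markers summed to 560 in VZ 1 and 2694 in VZ 2, against 43.9 in VZ 3 and at most 52.8 elsewhere. Meninges markers summed to 14.9 to 21.6 in CP and 15.5 in VZ 2, against 2.38 to 5.26 in the other libraries. The part of these mixtures in the results below was not tested, and fewer cells of a type and less RNA per cell cannot be told apart. Relative depth, read from the width of the deposited bounds, ranged from 0.714 in VZ 1 to 1.60 in OSVZ 3, and the median half-width of the bounds was 6.77% to 11.1% of the value.

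The cortical plate carried more of this gene family than the germinal layers, and most of its members differed between layers. The scaled FPKM of all 64 genes summed to 515 to 592 in the 6 VZ and ISVZ libraries, 549 to 669 in OSVZ and 677 to 775 in CP. Of the 47 tested genes, 26 had their highest layer mean in CP, 12 in OSVZ, 7 in VZ and 2 in ISVZ. How all genes tested divide over the layers in this way was not counted, so this order cannot be called a trait of the family. In the F test over the 4 layers 33 of 47 (70.2%) were called, against 51.8% of all genes tested. The count was 19 without the 4 libraries numbered 3. It also fell without VZ 1 and VZ 2, the libraries with choroid plexus RNA, which left 1 VZ library. F test counts over all genes were not made for those fits, so no share can be set beside them. The most abundant entries over the 12 libraries were PCDHGA4 (mean 72.7), CDH13 (68.2), CDH2 (45.2), CTNNA2 (40.7), CTNNBIP1 (36.6), CTNNA1 (33.6), CTNNB1 (31.7) and CTNND1 (26.6).

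**Figure D1:**
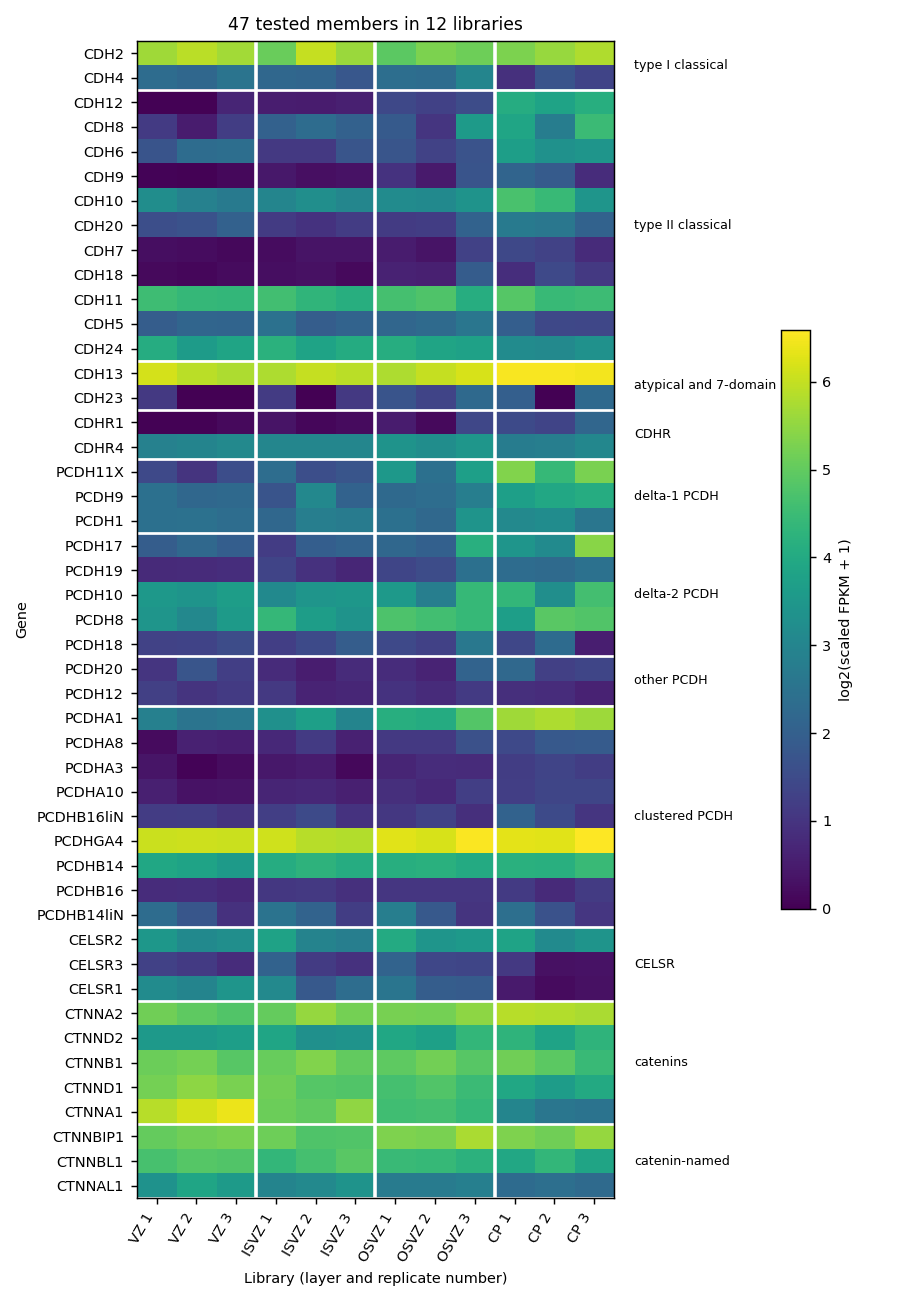
Level of the 47 tested genes (rows, by family) in the 12 libraries (columns, by layer and replicate number), as log2 of scaled FPKM plus 1. CDH12 and PCDH11X are brightest in the 3 CP columns, CTNNA1 fades from VZ to CP, and PCDH17 is brightest in CP 3 and OSVZ 3.

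Between CP and the mean of the germinal layers, 22 of 47 genes rose and 10 fell. Called genes in either direction made up 68.1% of the tested members, against 52.7% of all genes. The higher calls were 46.8% of the members against 24.0% of all genes, and the lower calls 21.3% against 28.7%. The median log2 difference was 0.42 over the 47 genes and -0.05 over all genes tested. Type II cadherins, clustered protocadherins and delta protocadherins supplied 18 of the 22 higher calls and the catenins and CELSR genes 4 of the 10 lower ones. All 3 CP libraries lay above all 9 germinal libraries for 11 of the 47 genes (23.4%, against 13.4% of all genes tested) and below all 9 for 6 (12.8%, against 19.3%). Without the 4 libraries numbered 3 the counts were 14 higher and 6 lower, against 2677 and 2996 of the 13329 genes tested in that fit.

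**Figure D2:**
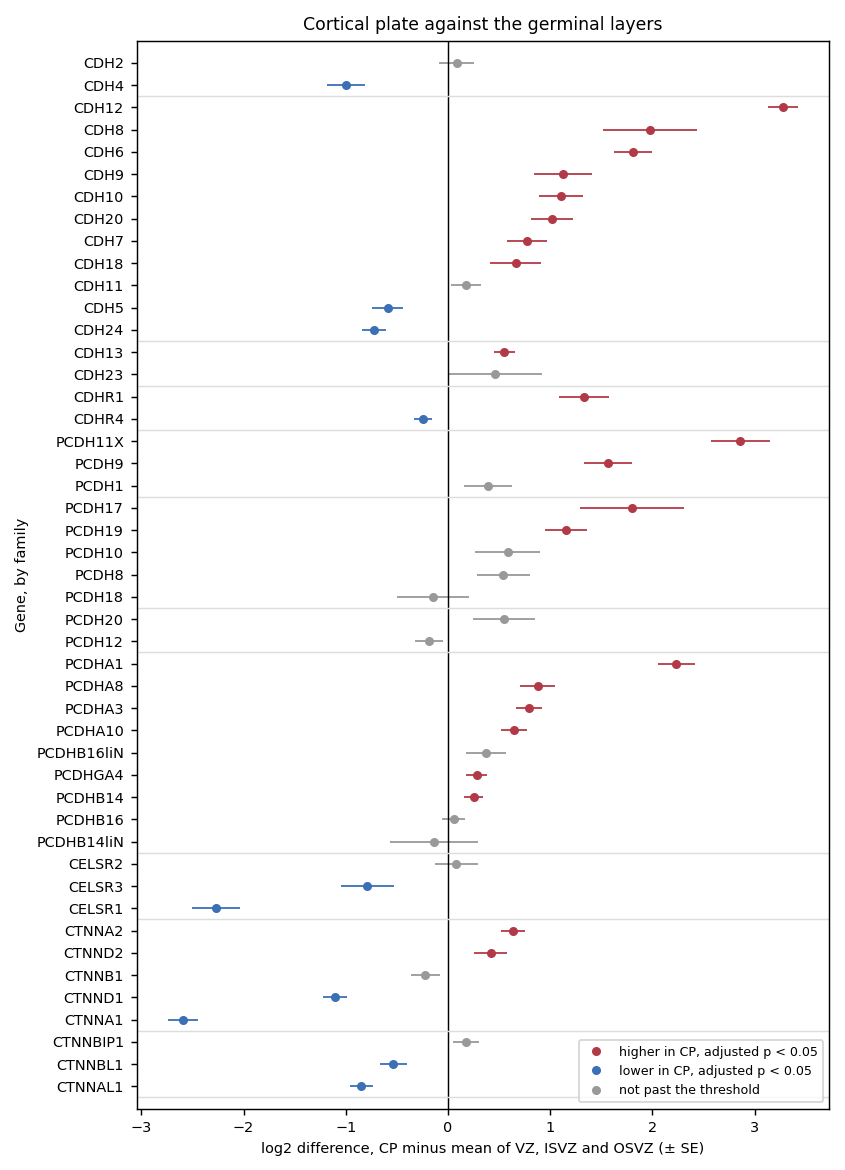
Log2 difference in scaled FPKM plus 1 between CP and the mean of VZ, ISVZ and OSVZ for the 47 tested genes (points, grouped by family, bars are ± SE). Red points are the 22 genes called higher in CP and blue points the 10 called lower, and CDH12 (3.28) and CTNNA1 (-2.59) mark the ends.

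The alpha-catenins changed order between the ventricular zone and the plate, from mostly CTNNA1 to mostly CTNNA2. CTNNA1 encodes alphaE-catenin, the epithelial form that ties cadherin complexes to actin, and it had the largest fall of the 47 tested genes in CP on the log2 scale with 1 added. As a ratio of mean levels, germinal over CP, it came after CELSR1, at 7.72 against 21.7, and with a pseudocount of 0.1 CELSR1 also had the larger log2 fall (-3.89). CTNNA1 stood at 58.1, 70.5 and 83.7 scaled FPKM in the 3 VZ libraries and at 33.7, 30.4 and 44.4 in ISVZ. In OSVZ it measured 22.6, 23.7 and 20.0, and in CP 7.0, 4.98 and 4.73. The 4 layers did not overlap. CTNNA1 fell by 2.59 ± 0.15 (SE) in CP against the germinal mean (adjusted p = 1.75e-07), and the VZ mean of 70.7 ± 12.8 (SD, n = 3) was 12.7 times the CP mean of 5.57 ± 1.24. The fall was already called between VZ and ISVZ, at -0.95 ± 0.18 (adjusted p = 0.00836), and it reached -1.62 ± 0.18 between VZ and OSVZ (adjusted p = 2.18e-04). The step from ISVZ to OSVZ was -0.67 ± 0.18 and was not called (adjusted p = 0.0753). The CTNNA1 entry spans chromosome 19 from 25148233 to 25338976 in the tables' coordinates and contains LRRTM2, a separate synaptic gene at a mean of 20.7, whose reads cannot be separated from it here.

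CTNNA2, the neural alpha-catenin, went the other way. Its libraries read 34.9, 30.0 and 26.7 in VZ, 32.0, 46.0 and 36.2 in ISVZ, 37.0, 36.1 and 43.3 in OSVZ, and 58.1, 55.5 and 53.0 in CP. All CP libraries lay above all germinal ones, and CTNNA2 rose by 0.64 ± 0.11 in CP (adjusted p = 7.29e-04). The share of CTNNA1 in the sum of both genes was 69.5% ± 6.67 (SD, n = 3) in VZ, 48.7% ± 7.96 in ISVZ, 36.4% ± 4.22 in OSVZ and 9.06% ± 1.46 in CP. CTNNA3, the third alpha-catenin, stayed at 0.335 or below in every library and was not tested.

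The p120 family shifted less, from mostly CTNND1 to similar levels of both genes. CTNND1, which encodes p120-catenin and holds cadherins at the membrane, read 35.7, 43.7 and 37.2 in VZ, 34.7, 27.9 and 26.8 in ISVZ, 24.1, 26.7 and 21.4 in OSVZ, and 14.3, 11.4 and 15.1 in CP. It fell by 1.10 ± 0.11 in CP (adjusted p = 1.28e-05), and every CP library lay below every germinal one. Between VZ and OSVZ the difference was -0.67 ± 0.14 (adjusted p = 0.00476), a call that was lost without VZ 1 and VZ 2 (-0.63, adjusted p = 0.0908) and without the libraries numbered 3 (-0.62, adjusted p = 0.0521), over a range of 0.00358 to 0.0908 in all alternatives. CTNND2, delta-catenin of neurons, read 10.8, 10.8 and 11.8 in VZ, 13.5, 8.83 and 9.43 in ISVZ, 14.2, 12.5 and 19.7 in OSVZ, and 18.5, 13 and 18.5 in CP. CTNND2 rose by 0.42 ± 0.16 in CP with overlapping libraries (adjusted p = 0.0450), and that call was lost in 16 of 22 alternatives, with adjusted p from 0.0156 to 0.167. The share of CTNND1 in the pair was 77.6% ± 2.3 in VZ, 73.9% ± 2.02 in ISVZ, 61.1% ± 8.17 in OSVZ and 45.1% ± 1.59 in CP.

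CTNNB1, beta-catenin, which also carries Wnt signals to the nucleus, was measured at nearly one level. It read 33.7, 35.9 and 28.2 in VZ, 32.4, 39.5 and 31.3 in ISVZ, 30.2, 35.7 and 28.5 in OSVZ, and 34.7, 29.4 and 21.1 in CP. The layers overlapped throughout, and the CP difference of -0.22 ± 0.14 was not called (adjusted p = 0.211). Of the 5 tested catenins 2 were called higher in CP (40%, against 24.0% of all genes) and 2 lower (40%, against 28.7%).

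Genes that share the catenin name without being cadherin-bound catenins were counted apart. CTNNAL1, alpha-catulin, a relative of alpha-catenin, fell stepwise with 9.33, 13.5 and 11 in VZ, 6.88, 7.55 and 9.36 in ISVZ, 5.72, 5.67 and 6.12 in OSVZ, and 3.90, 4.31 and 3.86 in CP. The difference was -0.85 ± 0.11 in CP against the germinal mean (adjusted p = 8.39e-05) and -0.83 ± 0.14 in OSVZ against VZ (adjusted p = 0.00141). CTNNBL1, a nuclear protein of the splicing machinery, read 24.5, 27.9 and 27.1 in VZ and 14.6, 19.7 and 13.4 in CP, a fall of 0.53 ± 0.13 against the germinal mean (adjusted p = 0.00488). CTNNBIP1, an inhibitor of beta-catenin in Wnt signalling, read 31.8, 34.8 and 36.5 in VZ, 34.0, 26.3 and 26.8 in ISVZ, 38.6, 37.6 and 53.2 in OSVZ, and 38.8, 34.7 and 45.9 in CP. Its CP difference of 0.18 ± 0.13 was not called (adjusted p = 0.263), and its entry overlaps a copy of HMGB1 (HMGB1li31) at a mean of 456, so its level is uncertain.

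**Figure D3:**
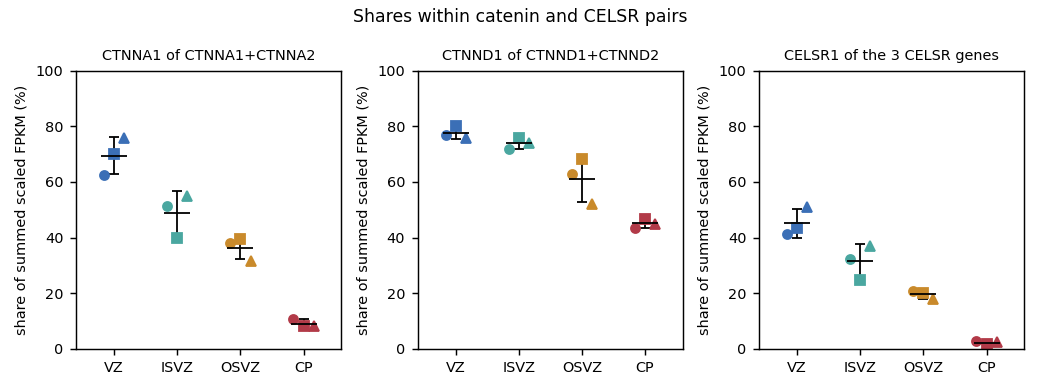
Share of CTNNA1 in CTNNA1 plus CTNNA2, of CTNND1 in CTNND1 plus CTNND2, and of CELSR1 in the 3 CELSR genes, in percent of summed scaled FPKM, by layer. Symbols are libraries (circle 1, square 2, triangle 3), lines are the mean ± SD of 3. The CTNNA1 share runs from 69.5% in VZ to 9.06% in CP, the CTNND1 share from 77.6% to 45.1%, and the CELSR1 share from 45.2% to 2.21%.

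Of the 3 CELSR genes, CELSR1 and CELSR3 were called lower in CP and CELSR2 was not called. CELSR1, the planar polarity cadherin of epithelia and progenitors, read 8.07, 6.84 and 9.81 in VZ and 7.62, 2.61 and 4.10 in ISVZ. It read 4.92, 2.86 and 2.69 in OSVZ and 0.388, 0.143 and 0.230 in CP. The CP libraries lay below all others, and CELSR1 fell by 2.27 ± 0.23 (adjusted p = 1.22e-05), a germinal mean 21.7 times the CP mean. Against VZ, the OSVZ difference was -1.06 ± 0.28 (adjusted p = 0.0169). That call was lost in 6 of 22 alternatives, with adjusted p up to 0.210, among them those without VZ 3, OSVZ 2 or OSVZ 3.

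CELSR2, expressed in progenitors and neurons, read 10.2, 7.75 and 8.62 in VZ, 12.8, 6.68 and 6.05 in ISVZ, 15.3, 9.82 and 10.7 in OSVZ, and 13.2, 7.96 and 9.57 in CP. Its layers overlapped, and the CP difference of 0.08 ± 0.21 was not called (adjusted p = 0.768). CELSR3, known for its part in axon tract formation, read 1.40, 1.16 and 0.787 in VZ, 3.20, 1.20 and 0.905 in ISVZ, 3.25, 1.65 and 1.61 in OSVZ, and 1.14, 0.233 and 0.244 in CP. Library 1 was the highest in every layer for CELSR3. Its CP difference of -0.79 ± 0.26 (adjusted p = 0.0261) was lost as a call in 6 of 21 alternatives. Among them were quantile normalisation, no filter on low values, and leaving out CP 2, CP 3 or the libraries numbered 3. Adjusted p ranged from 9.42e-04 to 0.118 over all alternatives. The CELSR3 entry overlaps IP6K2 at a mean of 62.7 and the CELSR2 entry SARS1 at 55.1, so both levels are uncertain. CELSR3 was also not called in the F test over the 4 layers (adjusted p = 0.0683). CELSR1 made up 45.2% ± 5.21 of the 3 genes in VZ, 31.4% ± 6.15 in ISVZ, 19.6% ± 1.53 in OSVZ and 2.21% ± 0.465 in CP. This share depends on those uncertain levels.

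**Figure D4:**
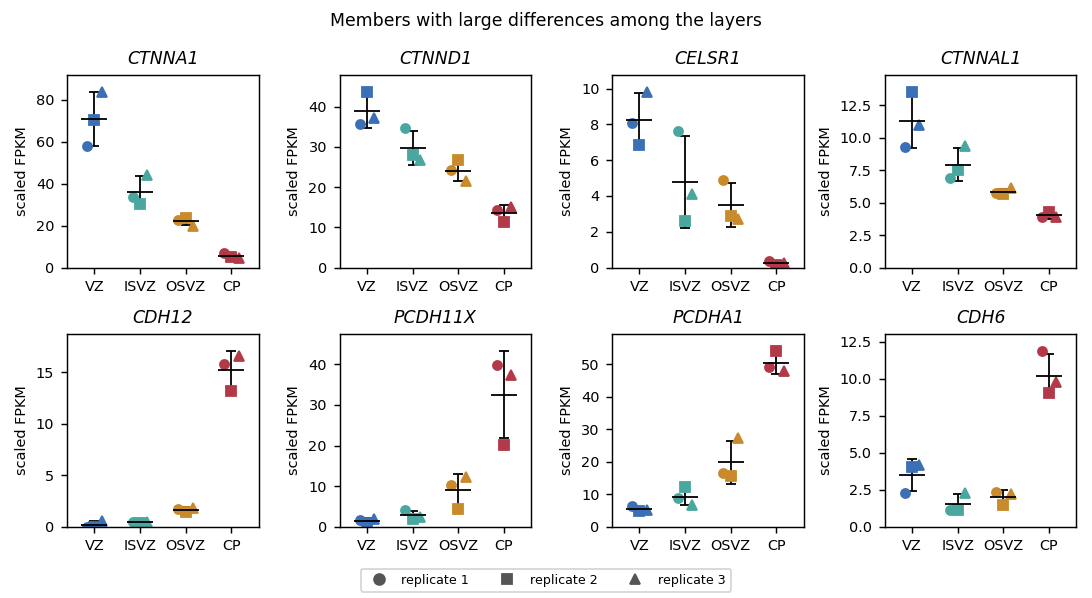
Scaled FPKM of 4 genes that fell (upper row: CTNNA1, CTNND1, CELSR1, CTNNAL1) and 4 that rose in CP (lower row: CDH12, PCDH11X, PCDHA1, CDH6), by layer. Symbols are libraries (circle 1, square 2, triangle 3), lines are the mean ± SD of 3. In all 8 genes the 3 CP libraries lie apart from the 9 germinal ones.

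Of the 2 tested type I classical cadherins, CDH4 was called lower in CP and CDH2 was not called. CDH2 (N-cadherin, the main cadherin of radial glia and neurons) read 49.1, 58.4 and 50.2 in VZ, 33.1, 63.1 and 47.1 in ISVZ, 29.3, 38.1 and 34.2 in OSVZ, and 38.3, 46.4 and 55.2 in CP. It was lowest in OSVZ, and the 3 OSVZ libraries lay below the 3 VZ libraries. The OSVZ difference from VZ was -0.62 ± 0.21 (adjusted p = 0.0453), lost in 12 of 22 alternatives with adjusted p from 0.0105 to 0.304, and CP against the germinal mean was 0.09 ± 0.17 (adjusted p = 0.699). CDH4, R-cadherin, read 4.0, 3.6 and 4.79 in VZ, 3.57, 3.41 and 2.46 in ISVZ, 4.20, 3.99 and 7.01 in OSVZ, and 0.884, 2.25 and 1.56 in CP. It fell by 1.00 ± 0.19 in CP (adjusted p = 9.43e-04), below every germinal library. CDH3, P-cadherin of epithelia, read 1.66 in VZ 1, 6.38 in VZ 2 and at most 0.537 elsewhere, and VZ 1 and VZ 2 are the libraries with the high choroid plexus sums. CDH15, the muscle cadherin, did not pass 0.0183.

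Type II cadherins were the family with the most genes called higher in CP against the germinal mean, with 8 of 11 tested. That was 72.7%, against 24.0% of all genes, and 2 were lower (18.2%, against 28.7%). The median log2 difference was 1.01. CDH7 and CDH9 reached 1 scaled FPKM only in CP 1, CP 2 and OSVZ 3. CDH18 reached it only in CP 2, CP 3 and OSVZ 3. So these genes passed the filter through OSVZ 3 and the layer where they were called higher. Against OSVZ alone 4 of the 11 were higher (36.4%, against 13.6%) and 2 lower (18.2%, against 17.3%). CDH7, CDH8, CDH9 and CDH18 were not called in that comparison. CDH12, a cadherin of neurons, had the largest difference of all 47 genes. It read 0.0299, 0.0224 and 0.606 in VZ, 0.429, 0.422 and 0.507 in ISVZ, and 1.71, 1.43 and 1.87 in OSVZ. In CP it read 15.8, 13.2 and 16.6, far above all germinal libraries, with a CP mean 19.5 times the germinal mean. The difference was 3.28 ± 0.14 for CP against the germinal mean (adjusted p = 3.92e-08), 2.60 ± 0.18 against OSVZ (adjusted p = 4.30e-06) and 1.16 ± 0.18 for OSVZ against VZ (adjusted p = 9.32e-04). The calls for CP against the germinal mean and for OSVZ against VZ held in all 22 alternatives.

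CDH6, which marks subdivisions of the cortex and its connections, had a second pattern, with its lowest layer means in the subventricular layers. It read 2.27, 4.01 and 4.21 in VZ, 1.12, 1.15 and 2.32 in ISVZ, 2.32, 1.46 and 2.19 in OSVZ, and 11.8, 9.02 and 9.76 in CP. CDH6 rose by 1.81 ± 0.18 in CP (adjusted p = 1.16e-05) and fell by 0.83 ± 0.23 from VZ to ISVZ (adjusted p = 0.0427). Its OSVZ difference from VZ was -0.57 ± 0.23 and was not called (adjusted p = 0.0823), but was without VZ 1 (-0.79, adjusted p = 0.0236). VZ 1 lay below ISVZ 3 and OSVZ 1, so these layers overlapped. CDH20 had the same order of layer means, from 2.41 ± 0.598 (SD, n = 3) in VZ to 1.13 ± 0.157 in ISVZ, 1.90 ± 1.11 in OSVZ and 4.57 ± 1.20 in CP. CDH20 rose by 1.01 ± 0.20 in CP (adjusted p = 0.00149), while its VZ to ISVZ step of -0.67 ± 0.25 was not called (adjusted p = 0.131).

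CDH8, a cadherin of synaptic partners in cortical circuits, was high but uneven. It read 1.17, 0.406 and 1.29 in VZ, 3.15, 3.98 and 3.14 in ISVZ, 2.66, 1.04 and 11 in OSVZ, and 13.7, 5.95 and 21.6 in CP. OSVZ 3 stood above CP 2, so the layers overlapped, and the CP difference was 1.98 ± 0.46 (adjusted p = 0.00378). CDH10 read 24.8, 20.9 and 9.82 in CP against 5.52 to 9.39 in the germinal libraries and rose by 1.10 ± 0.22 (adjusted p = 0.00134). CDH9 read 3.39, 2.71 and 0.780 in CP and 0.970, 0.390 and 2.3 in OSVZ, against 0.337 or less in VZ and ISVZ. It rose by 1.13 ± 0.28 in CP (adjusted p = 0.00578), although CP 3 lay below OSVZ 1 and OSVZ 3. CDH7 and CDH18 rose by 0.78 ± 0.20 (adjusted p = 0.00653) and 0.66 ± 0.25 (adjusted p = 0.0431) against the germinal mean, at low levels. The highest layer mean of CDH7 was 1.30 ± 0.492 in CP. CDH18 was highest in OSVZ, at 1.26 ± 1.29 against 1.23 ± 0.460 in CP, and OSVZ 3 (2.75) lay above every CP library. Its CP difference from OSVZ was 0.10 ± 0.31 and was not called (adjusted p = 0.828). CDH7 overlaps a ribosomal protein copy (RPL26li3, mean 35) and is uncertain.

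Of the other 3 tested type II genes, CDH5 and CDH24 fell in CP and CDH11 was not called. CDH5, VE-cadherin of blood vessels, read 2.83, 3.40 and 3.35 in VZ, 4.45, 2.86 and 3.31 in ISVZ, 3.54, 3.83 and 4.98 in OSVZ, and 2.94, 1.70 and 1.65 in CP. It fell by 0.59 ± 0.15 (adjusted p = 0.00700), a call lost without the libraries numbered 3 (-0.44, adjusted p = 0.108), with adjusted p from 0.00203 to 0.108 over its alternatives. The summed endothelial markers, 6 of 9 tested with 3 called lower, moved with it, at 22.4 to 31.8 in the germinal libraries and 12.5 to 22.0 in CP, and their part was not tested. CDH24 read 15.8, 11.2 and 13.5 in VZ, 17.5, 13.1 and 15.6 in ISVZ, 16.1, 13.4 and 12.6 in OSVZ, and 8.0, 7.64 and 9.05 in CP. CDH24 fell by 0.72 ± 0.12 (adjusted p = 3.86e-04) but overlaps ACIN1 at a mean of 20.1. CDH11, a cadherin of mesenchyme and neural tissue, ranged from 16.3 to 28.1 over all libraries, with a CP difference of 0.18 ± 0.15 (adjusted p = 0.329). CDH19, a cadherin of glial and neural crest cells, and CDH22 were too low to test.

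The type II genes that rose lie partly together in the genome. CDH6, CDH9, CDH10, CDH12 and CDH18 occupy 10.1 Mb of chromosome 11, from 32548317 to 42659995 in the tables' coordinates (build not given in the sources used here). All 5 were called higher in CP against the germinal mean. Against OSVZ alone CDH6, CDH10 and CDH12 were called higher, while CDH9 (adjusted p = 0.244) and CDH18 (adjusted p = 0.828) were not. CDH20, CDH7 and CDH19 occupy 4.98 Mb of chromosome 13, from 614618 to 5592960. Both tested genes of the 3 were called higher against the germinal mean, and CDH7 was not called against OSVZ (adjusted p = 0.161). CDH8, CDH11 and CDH5 share chromosome 22, and there CDH8 was called higher, CDH5 lower and CDH11 not.

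Of the cadherins outside the classical types, CDH13 (T-cadherin, which is held by a lipid anchor and has no cytoplasmic tail) was the most abundant. It read 71.2, 59.4 and 54.0 in VZ, 54.1, 63.5 and 58.5 in ISVZ, 53.9, 63.1 and 72.6 in OSVZ, and 90.7, 90.5 and 87.6 in CP. The germinal layers overlapped each other and CP lay above them, with a rise of 0.55 ± 0.11 (adjusted p = 0.00111). CDH23, a cadherin of hair cell tip links, was estimated near 0 in VZ 2, VZ 3, ISVZ 2 and CP 2 and at 1.13 to 3.78 in the other 8 libraries, and none of its comparisons was called. The CDH23 entry overlaps PSAP at a mean of 213, so its level is uncertain. CDHR1, a cadherin of photoreceptors, rose by 1.33 ± 0.24 in CP (adjusted p = 8.10e-04), with 1.80, 1.53 and 3.50 in CP, 0.420, 0.125 and 1.66 in OSVZ and at most 0.274 in VZ and ISVZ. CDHR4 read 6.46, 6.81 and 7.55 in VZ, 7.07 to 7.19 in ISVZ, 8.37 to 10.03 in OSVZ, and 5.75, 6.06 and 7.33 in CP. It fell by 0.24 ± 0.09 against the germinal mean (adjusted p = 0.0368), with CP below OSVZ but overlapping VZ and ISVZ. Its entry overlaps RNF123 and other genes.

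Delta protocadherins rose in CP where they were called. PCDH11X, a delta-1 protocadherin named after the X chromosome, read 1.75, 0.977 and 1.94 in VZ, 4.13, 1.99 and 2.35 in ISVZ, 10.4, 4.44 and 12.2 in OSVZ, and 39.8, 20.2 and 37.5 in CP. The 3 OSVZ libraries lay above all VZ and ISVZ libraries and the 3 CP libraries above all others. PCDH11X rose by 2.86 ± 0.29 in CP (adjusted p = 1.12e-05), 20.9 times in CP over VZ, and by 1.89 ± 0.35 in OSVZ over VZ (adjusted p = 0.00271). The OSVZ call was lost without VZ 1 and VZ 2 (1.66, adjusted p = 0.0802), with adjusted p from 3.67e-04 to 0.0802 in all alternatives.

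PCDH9, a delta-1 protocadherin of cortical neurons, was called in both comparisons with CP and in none between germinal layers. It read 4.40, 3.59 and 3.75 in VZ, 2.28, 7.43 and 3.17 in ISVZ, 3.77, 4.13 and 6.06 in OSVZ, and 12.1, 14.5 and 15.8 in CP. The difference was 1.56 ± 0.23 for CP against the germinal mean (adjusted p = 1.99e-04) and 0.18 ± 0.29 for OSVZ against VZ (adjusted p = 0.681). PCDH1, the third delta-1 gene, ranged from 3.58 to 9.60 with a CP difference of 0.39 ± 0.23 (adjusted p = 0.178).

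Among the 5 delta-2 protocadherins, which regulate actin through the WAVE complex, PCDH17 and PCDH19 were called higher in CP. PCDH17 read 9.72, 7.92 and 41.5 in CP, 3.57, 3.09 and 16.8 in OSVZ, 1.26, 2.92 and 3.26 in ISVZ, and 2.86, 3.69 and 2.94 in VZ. Library 3 was far above the other libraries in both CP and OSVZ. PCDH17 rose by 1.80 ± 0.51 (adjusted p = 0.0111), and the call was lost without CP 3 (1.10, adjusted p = 0.0723), with adjusted p from 0.00180 to 0.0723 in all alternatives. An antisense entry (PCDH17-AS-2, mean 5.21) overlaps it.

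PCDH19, a delta-2 gene of the X chromosome in mammals, read 0.721, 0.767 and 0.827 in VZ, 1.55, 0.914 and 0.641 in ISVZ, 1.59, 1.90 and 4.41 in OSVZ, and 4.06, 3.84 and 4.52 in CP. It rose by 1.16 ± 0.20 in CP (adjusted p = 6.23e-04) and by 0.96 ± 0.25 in OSVZ over VZ (adjusted p = 0.0150). PCDH8, known from synapses, had its highest mean in OSVZ. It read 9.88, 7.41 and 11 in VZ, 19.8, 11.7 and 9.40 in ISVZ, 25.9, 23.1 and 20.3 in OSVZ, and 11.9, 28.7 and 26.9 in CP. All OSVZ libraries lay above all VZ libraries, and PCDH8 rose by 1.22 ± 0.32 there (adjusted p = 0.0154), a call lost in 5 of 22 alternatives, without VZ 2 or OSVZ 1 among them, with adjusted p from 0.00391 to 0.237. Its CP difference of 0.54 ± 0.26 was not called (adjusted p = 0.102) but was without CP 1 (0.93, adjusted p = 0.00623) and without ISVZ 1 (0.64, adjusted p = 0.0439). PCDH10 and PCDH18 had overlapping layers and were not called in any comparison. PCDH12, of vessels, and PCDH20 were not called either, and PCDH15 stayed at 0.884 or below.

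**Figure D5:**
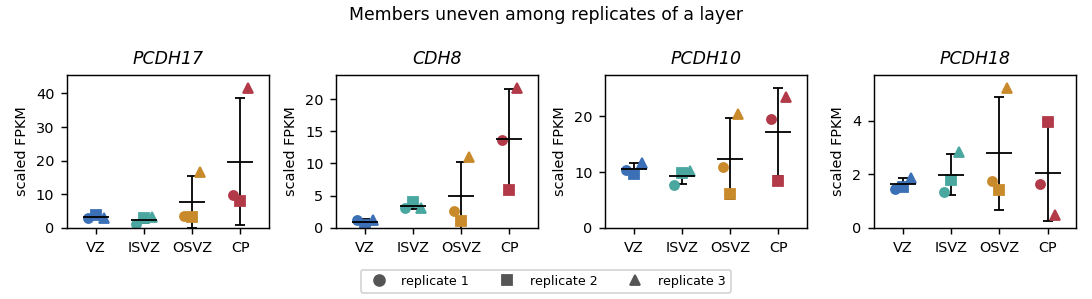
Scaled FPKM of 4 genes with uneven replicates (PCDH17, CDH8, PCDH10, PCDH18) by layer. Symbols are libraries (circle 1, square 2, triangle 3), lines are the mean ± SD of 3. The OSVZ 3 triangle is the highest OSVZ point in all 4 genes, and the CP 3 triangle is the highest CP point in PCDH17, CDH8 and PCDH10 and the lowest in PCDH18.

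OSVZ 3 stood apart for many of these genes. In 11 of the 47 genes (23.4%) it was at 2 or more times both other OSVZ libraries, against 736 of all genes tested (5.22%). These were CDH18 (5.03 times the next OSVZ library), PCDH17 (4.70), PCDH20 (4.23), CDH8 (4.14), CDHR1 (3.96), CDH7 (3.46), PCDH18 (2.99), CDH20 (2.43), CDH9 (2.37), PCDH19 (2.33) and PCDH1 (2.21). Of these, CDH18, CDH7 and CDH9 reached 1 in only 3 libraries, so they passed the filter with the help of OSVZ 3. OSVZ 3 had the greatest relative depth of the 12 libraries and a projection neuron sum of 423, against 739 in OSVZ 1 and 649 in OSVZ 2. Its oligodendrocyte precursor sum was 70.4, against 46.4 and 67.8, and its radial glia sum was 210, against 222 and 218. The part of these values in the difference was not tested.

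The clustered protocadherins lie in 14 entries on chromosome 19, between 27293739 and 28110484 in the tables' coordinates. In the alpha and gamma clusters alternative first exons are joined to shared last exons, which beta genes lack, so reads of the alpha and gamma entries are hard to assign. The wide entries (PCDHA1, PCDHB14 and PCDHGA4) cover shorter ones. The alpha cluster changed most. Its 6 entries summed to 7.46, 5.95 and 6.48 in VZ, 10.9, 15.3 and 8.29 in ISVZ, 20.5, 18.5 and 32.9 in OSVZ, and 54.3, 60.4 and 55.0 in CP. Each layer's sums lay above all those of the layer before, and no layers overlapped. The beta entries summed to 17.7 ± 3.36 (SD, n = 3) in VZ and 24.8 ± 2.23 in CP, and the gamma entries to 66.1 ± 0.855 and 83.8 ± 10.1.

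The PCDHA1 entry held most of the alpha signal. It read 6.32, 4.75 and 5.25 in VZ, 8.93, 12.2 and 6.79 in ISVZ, 16.5, 15.5 and 27.3 in OSVZ, and 49.0, 53.9 and 48 in CP. PCDHA1 rose by 2.23 ± 0.18 in CP (adjusted p = 2.15e-06) and by 1.65 ± 0.22 in OSVZ over VZ (adjusted p = 4.66e-04), in all 22 alternatives. The entry spans 256605 bases, so the value may stand for shared exons rather than for that isoform. PCDHA8, PCDHA3 and PCDHA10 also rose in CP, by 0.88 ± 0.17, 0.79 ± 0.13 and 0.64 ± 0.13, at CP means of 2.34 ± 0.542, 1.36 ± 0.144 and 1.5 ± 0.155. Their adjusted p-values were 0.00132, 3.08e-04 and 0.00138. PCDHA3 reached 1 in the 3 CP libraries only, so it passed the filter through the layer where it was called higher. Its lower bound lay above 0 in 7 of 12 libraries, with a median half-width of 81.9% of the value. PCDHA10 reached 1 in 4 libraries, those of CP and OSVZ 3. Both are included in the counts of called and of separated genes above. CDHR1, CDH7, CDH9 and CDH18 likewise reached 1 only in CP libraries and OSVZ 3, and are in the counts of called genes.

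The PCDHGA4 entry was the most abundant of the 64 and moved little. It spans 228710 bases, so its value may stand for shared exons rather than for that isoform. It read 65.6, 66.8 and 65.5 in VZ, 68.5, 57.7 and 56.0 in ISVZ, 77.1, 72.1 and 92.1 in OSVZ, and 78.4, 77.1 and 95.2 in CP. Its CP difference of 0.28 ± 0.10 (adjusted p = 0.0362) was lost in 15 of 22 alternatives, with adjusted p from 0.0153 to 0.253. PCDHB14 had a CP difference of 0.25 ± 0.10 (adjusted p = 0.0484) and overlaps PCDHGA4. PCDHB16, PCDHB14liN and PCDHB16liN were not called in any comparison, and within PCDHB14liN library 1 was the highest and library 3 the lowest in every layer.

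Among neighbouring layers, the step from OSVZ to CP had the most calls. Between OSVZ and CP 11 genes rose and 9 fell, together 42.6% of the 47 against 31.0% of all genes. The higher calls compare with 13.6% of all genes and the lower with 17.3%, and the median difference was 0.15 against -0.04. The higher genes were CDH12, CDH6, PCDH11X, PCDH9, PCDHA1, CDH20, CDHR1, CDH10, CTNNA2, CDH13 and PCDHA3. The lower genes were CTNNA1, CELSR1, CDH4, CELSR3, CTNND1, CDH5, CDH24, CDHR4 and CTNNAL1. The higher count was 5 without OSVZ 1 (all genes 1276 of 14037) and 7 without OSVZ 2 (all genes 1359 of 14034). With no filter on low values it was 6 of 63 members, against 1449 of 41048 genes. In the main fit 1925 of 14107 genes were called higher.

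Between ISVZ and OSVZ limma called none of the 47 genes, against 0.603% of all genes in either direction (0.482% higher and 0.121% lower). At an unadjusted p under 0.05 there were 14 of the 47 genes and 2823 of all genes, and the median difference was 0.25 against -0.0034 over all genes. CDH12 (0.87 ± 0.18, adjusted p = 0.0513), PCDHA1 (1.00 ± 0.22, adjusted p = 0.0546) and PCDH11X (1.33 ± 0.35, adjusted p = 0.0755) came nearest on the higher side and CTNNA1 on the lower. These 4 were picked out after their values were seen. CDH12, PCDHA1 and PCDH11X were called without OSVZ 2 (all genes higher 229 of 14034), and CDH12 alone without VZ 3 or without ISVZ 1. With the replicate numbers fitted as a block CDH12 and PCDH11X were called (all genes higher 156 of 14107). With quantile normalisation CDH12 and PCDHA1 were called (164 of 14107).

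Between VZ and ISVZ no gene was called higher (1.54% of all genes), and CTNNA1 and CDH6 were called lower, 4.26% of the 47 against 7.17% of all genes and 8.71% of all genes in either direction. The lower count was 1 without any 1 of CP 1, CP 2, CP 3, ISVZ 2, OSVZ 1, VZ 2 or VZ 3. Over all genes it ran from 364 of 13855 (without VZ 2) to 964 of 13966 (without CP 3) in those fits. In the main fit it was 1012 of 14107. Without VZ 1 and VZ 2 together, which left 1 VZ library, it also fell, for these genes and for all genes.

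Between VZ and OSVZ 9 genes rose and 5 fell, 29.8% of the 47 against 27.9% of all genes. Higher calls were 19.1% of the 47 against 11.7% of all genes, lower calls 10.6% against 16.2%, and the median difference was 0.28 against -0.02. The higher genes were PCDH11X, PCDHA1, PCDH8, CDH12, PCDH19, PCDHA8, PCDHA3, PCDHA10 and CDHR4, of which 4 belong to the alpha cluster. Of these PCDHA3 stayed under 1 in every VZ and OSVZ library, at layer means of 0.164 and 0.713. The lower genes were CTNNA1, CELSR1, CTNNAL1, CTNND1 and CDH2. The higher count was 5 without VZ 2 (all genes 1064 of 13855). The lower count was 3 without VZ 3 (all genes 1668 of 13882), without OSVZ 2 (1833 of 14034) or without OSVZ 3 (1935 of 13970). Without both VZ 1 and VZ 2, which left 1 VZ library, both counts fell, for these genes and for all genes tested. All these comparisons draw on the same 12 libraries and so are not independent of each other.

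Partner genes of the cadherins were counted from fixed lists. Of the adherens junction partners, 19 of 22 were tested, and 4 rose (21.1%, against 24.0% of all genes) and 9 fell (47.4%, against 28.7%) in CP against the germinal layers, with a median of -0.40 against -0.05 over all genes. PLEKHA7, a junction scaffold that binds p120-catenin, read 5.18 to 7.99 in VZ, 1.34 to 2.5 in ISVZ, 1.61 to 1.92 in OSVZ and 0.153 to 0.223 in CP, and fell by 1.72 ± 0.14 (adjusted p = 2.91e-06). PRKCI and PARD3, of the apical polarity complex, fell by 1.57 ± 0.23 and 1.46 ± 0.12. PTPRK, a receptor phosphatase, rose by 1.71 ± 0.23. NECTIN3, an adhesion protein of the immunoglobulin family, rose by 1.84 ± 0.14, with 13.5 to 25.9 in CP and 3.09 to 6.14 in the germinal libraries. In OSVZ against VZ 10 of the 19 fell (52.6%, against 16.2% of all genes) and 1 (5.26%, against 11.7%), JUP (plakoglobin, a relative of beta-catenin), rose by 0.68 ± 0.14 (adjusted p = 0.00409). In ISVZ against VZ 6 fell (31.6%, against 7.17%) and none rose.

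Of the planar polarity partners of CELSR, 12 of 14 were tested, with 2 higher (16.7%, against 24.0% of all genes) and 6 lower (50%, against 28.7%) in CP and a median of -0.50. FZD3, the frizzled receptor that acts with CELSR proteins, fell by 0.95 ± 0.12 (adjusted p = 5.85e-05), and PTK7 by 0.94 ± 0.10 (adjusted p = 1.80e-05). ANKRD6 fell by 1.03 ± 0.22, while PRICKLE2, a cytoplasmic polarity protein, rose by 1.48 ± 0.19 (adjusted p = 6.23e-05). VANGL1 and DVL3 were not called, with CP differences of -0.02 ± 0.16 and -0.06 ± 0.12.

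Of the Fat, Dachsous, calsyntenin and desmosomal genes, 9 of 18 were tested, with 2 higher and 2 lower in CP, each 22.2% against the same 24.0% and 28.7%. FAT4 read 15.2 to 35.5 in CP and 1.90 to 11.2 in the germinal libraries and rose by 2.14 ± 0.29, and FAT1 fell by 1.65 ± 0.15, from 4.83 to 6.18 in VZ to 0.207 to 0.650 in CP. DCHS1, a ligand of FAT4, fell by 0.78 ± 0.14 (adjusted p = 5.88e-04). CLSTN3, a calsyntenin of synapses, rose by 0.82 ± 0.24 (adjusted p = 0.0151).

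All 17 genes for protocadherin promoter choice and intracellular signalling were tested, with 4 higher (23.5%, against 24.0%) and 6 lower (35.3%, against 28.7%) in CP and a median of -0.17. The 4 higher genes were PTK2B, a kinase bound by clustered protocadherins (1.77 ± 0.14), and WASF1, NCKAP1 and ABI2 of the WAVE complex (1.67 ± 0.18, 0.81 ± 0.12 and 0.68 ± 0.09). Among the lower genes were ROCK1, a kinase of the actin skeleton (-0.88 ± 0.11), and RAD21, the cohesin subunit (-0.66 ± 0.09). CTCF, which helps to choose the clustered promoters, was not called (-0.17 ± 0.08, adjusted p = 0.0755). Of 4 tested repressors of classical cadherins, ZEB1 fell by 2.43 ± 0.22 (adjusted p = 5.70e-06), SCRT2 fell by 1.33 ± 0.21, ZEB2 rose by 0.96 ± 0.22 (adjusted p = 0.00385) and SCRT1 was not called.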

How the data were processed

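Per the file headers, the authors deposited FPKM per gene, with a lower and an upper bound, in a separate table for each library. The tools were HISAT2 and Cufflinks, per the submitters' processing notes. Tool versions, build, annotation and strand setting were not given in the sources used here. Gene names and coordinates are those of the tables. Entries sharing an ID (360 IDs) were summed and 4 IDs with a failed status left out. Libraries were scaled by median ratio over 10200 genes (factors 0.946 to 1.06). Read depth is unknown, so relative depth came from the bounds. Testing used limma 3.58.1 (R 4.3.3) for genes reaching 1 scaled FPKM in 3 or more libraries, on log2 of scaled FPKM plus a pseudocount of 1 (4 layers, intensity trend, 8 residual degrees of freedom, Benjamini-Hochberg, two-sided), after tests on simulated data. No pair of libraries held identical values. Alternatives were other pseudocounts, scalings, filters and variance models, a replicate block, and left-out libraries. Values per library are given for the 8 largest and 8 smallest called CP differences, the 4 largest and 4 smallest between OSVZ and VZ, the 8 most abundant genes, and all catenins and CELSR genes. Of partner lists, genes with the largest differences and up to 2 others are named. The members and lists were chosen with earlier results of these data known. CDH1, PCDH7 and PCDH11Y were not analysed here. No sequences were used here.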

Additional observations from a re-analysis of the deposited data

Results flagged for a closer look

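The naming rule left out 9 entries that the tables name as copies. In 3 of them the deposited lower bound lay above 0 in every library, so signal was present in data outside the comparisons. PCDHB14li1 had a mean of 1.07 scaled FPKM over the 12 libraries and PCDHB14li2 a mean of 3.19, and both lie within the span of the PCDHB14 entry. PCDH19li1, on an unplaced contig, had a mean of 5.59 and read 1.61 to 2.66 in VZ, 1.63 to 2.43 in ISVZ, 2.45 to 9.61 in OSVZ and 9.70 to 16.4 in CP. Its CP difference of 1.89 ± 0.28 (limma, adjusted p = 1.69e-04) was in the same direction as that of PCDH19 (1.16 ± 0.20), at a higher level in 12 of 12 libraries. Whether the 2 entries are parts of 1 gene was not tested.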

How the results depend on the processing

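Of 1090 refits of the named genes' CP and OSVZ differences, 1018 stayed on their side of the threshold, 66 lost the call, 6 gained one and 0 called differences changed sign. Of the 1018, 15 were uncalled differences near 0 that changed sign, in CDH2 and CELSR2 (CP) and in CDH4, CDH13, CDH24, CTNNB1 and PCDH9 (OSVZ). Counts of called genes moved by over 1.5 times as follows, and the cause was not tested. ISVZ against VZ, lower, was 1 with FPKM as deposited (all genes 895 of 14106), quantile normalisation (832 of 14107) and no filter (689 of 41048). It was also 1 with a filter at 5 (528 of 8802) and without the libraries numbered 3 (260 of 13329). OSVZ against ISVZ, higher, was 2 with quantile normalisation (all genes 164 of 14107) and 1 with the filter at 5 (197 of 8802). CP against OSVZ, higher, was 6 with no filter, against 1449 of 41048 genes. CP against the germinal mean was 13 higher with the filter at 5, against 2496 of 8802 genes. It was 14 higher and 6 lower without the libraries numbered 3, against 2677 and 2996 of 13329 genes. OSVZ against VZ, higher, was 5 with the filter at 5 (all genes 1311 of 8802) and 3 without the libraries numbered 3 (897 of 13329). In the latter setting the lower count was 2 (1196 of 13329). The F test gave 19 without the libraries numbered 3. Without VZ 1 and VZ 2, which left 1 VZ library, the F test count also moved. So did counts for ISVZ against VZ, OSVZ against ISVZ and OSVZ against VZ. These 2 settings were chosen after seeing the data.

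Leaving out each library in turn gave 17 to 21 higher and 8 to 10 lower genes for CP against the germinal mean, 5 to 16 and 7 to 9 for CP against OSVZ, 0 to 3 and 0 to 0 for OSVZ against ISVZ, 0 to 1 and 1 to 3 for ISVZ against VZ, 5 to 11 and 3 to 5 for OSVZ against VZ, and 27 to 34 in the F test. In the same fits the counts over all genes were 2835 to 3471 higher and 3377 to 4031 lower for CP against the germinal mean. They were 1276 to 2095 and 1824 to 2487 for CP against OSVZ. For OSVZ against ISVZ they were 1 to 355 and 0 to 199, and for ISVZ against VZ 30 to 300 and 364 to 1074. For OSVZ against VZ they were 1064 to 1664 and 1515 to 2318. F test counts over all genes were not made for these fits. Where 1 library remained of a layer, it was assumed to vary like the other layers.

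The replicate numbers were checked as a possible pairing. Deviations of same-numbered libraries correlated at 0.0628 to 0.425 in 18 pairs of libraries, above 0.1 in 16, and all 12 libraries were closest to their own number, a hint of shared structure. The rule asked for more than 0.1 in all 18 pairs, so the block was kept as an alternative. With the replicate block the counts were 21 higher and 10 lower for CP against the germinal mean, 13 and 9 for CP against OSVZ, 2 and 0 for OSVZ against ISVZ (CDH12 and PCDH11X), 0 and 3 for ISVZ against VZ, 11 and 5 for OSVZ against VZ, and 37 in the F test. Over all 14107 genes the block gave 3612 higher and 4374 lower for CP against the germinal mean, and 2175 and 2835 for CP against OSVZ. It gave 156 and 50 for OSVZ against ISVZ, 371 and 1217 for ISVZ against VZ, and 1937 and 2568 for OSVZ against VZ. Read depth is unknown, so no detection limit can be given for genes near 0.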

Other observations

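Calls in CP were also counted by the length of the annotated entry. Of the 15 tested genes spanning 200000 bases or more, 13 were called higher in CP and 0 lower, while of the 32 shorter ones 9 were higher and 10 lower. Among all genes tested, 38.5% of 1368 entries of that length were called higher and 25.3% lower, against 22.5% and 29.0% of 12739 shorter entries. The length limit was chosen after the values were seen, and no test was made.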
